A study of Mus musculus with 21 samples.

Results

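The integrin chains described here are 10 genes, Itgal, Itgam, Itgax, Itgb2, Itgb3, Itgb5, Itgav, Itga4, Itga6 and Itgb1, taken by gene name from a deposited table of 57180 mouse genes. All 10 were found, and all 10 passed the filter on low counts that left 18867 genes for testing. Their transcripts were read by RNA-seq from brain cells sorted out of mice, in 21 libraries. The genes were chosen by their levels in these data: Itgb3 and Itgal were selected on CPM values (below) that differ in opposite directions between the transplanted cells of monocyte origin and the transplanted microglia. Levels in that comparison are therefore given as a description with no test, and tests are given for the other comparisons, which share libraries with it.

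The study asked how microglia, the resident macrophages of the brain, compare with transplanted cells at rest and after seizures. MG libraries held transplanted microglia and MLC libraries held transplanted monocyte-derived microglia, and both kinds had the genotype Osb-GFP. NoTx libraries held the brain's own microglia from mice without a transplant, of genotype CX3CR1-CreER+/-; CSF1R fl/fl, so genotype and transplantation cannot be told apart in any comparison with NoTx. The saline groups had 3 MG, 3 MLC and 2 NoTx libraries, and the seizure groups, taken 5 days after kainic acid, had 4, 6 and 3. Of the 6 MLC seizure libraries, replicates 3 and 6 carry 11b in their names and otherwise the same name code as replicates 2 and 4, so the 6 may come from fewer than 6 mice. Kainic acid is a glutamate receptor agonist that brings on seizures. Age, strain, the number of mice per library and the markers used for sorting are not given in the sources used here. Every seizure library was labelled batch 1 and every saline library batch 2, which means that batch and treatment cannot be told apart.

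The depth was 36.5 to 50.3 M estimated counts per saline library and 6.57 to 73.8 M per seizure library. All 12 macrophage identity markers had group means above 5 CPM (counts per 1 M, scaled to library size) in all 6 groups, which fits the cell type on the labels. Csf1r, the floxed gene of the NoTx mice, was read at 745 to 2925 CPM in NoTx after saline and at 1036 to 8537 CPM after seizure, and its range over the other groups was 392 to 11794 CPM. Xist, which is transcribed in female cells, exceeded 50 CPM in all 7 MG libraries and in 0 of 9 MLC libraries, so the sex of the cells and their origin cannot be told apart in that comparison. Of the NoTx libraries, 0 of 2 after saline and 2 of 3 after seizure exceeded it. In MG, Y-linked transcripts summed to more than 50 CPM as well in 2 of 3 libraries after saline and in 4 of 4 after seizure. MG seizure replicates 3 and 4 and MLC seizure replicate 5 stood apart, with 8883 to 9637 genes at 10 counts or more at equal depth, against 10234 to 11877 in the other libraries.

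Integrins are cell surface receptors made of 1 alpha and 1 beta chain, and the pairing sets the ligand. The beta 2 chain (Itgb2) is found on leukocytes and pairs with alpha L (Itgal) to form LFA-1, which binds ICAM proteins, with alpha M (Itgam, also called CD11b) to form complement receptor 3, and with alpha X (Itgax, also called CD11c). The beta 1 chain (Itgb1) pairs with many alpha chains, among them alpha 4 (Itga4), a receptor for VCAM-1 and fibronectin, and alpha 6 (Itga6), a laminin receptor. Alpha V (Itgav) pairs with beta 3 (Itgb3) or beta 5 (Itgb5) to bind vitronectin and other proteins that carry the RGD motif. CD11b is among the surface proteins most used to sort brain macrophages.

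Among the partners of beta 2, alpha L transcripts set MLC apart from both kinds of microglia. Itgal had 34.1, 65.0 and 124 CPM in the 3 MLC saline libraries, and from 28.3 to 79.6 CPM, with a median of 37.3, in the 6 MLC seizure libraries. In MG it had 2.45, 0.753 and 4.25 CPM after saline and 0, 0, 0.0265 and 0.0318 CPM after seizure. In NoTx it had 1.82 and 3.99 CPM after saline and 0, 0.0608 and 0.151 CPM after seizure. Every MLC library was thus above every MG and NoTx library, and every saline library of MG and NoTx was above every seizure library of the same 2 kinds. The MG seizure libraries held 2 Itgal counts in all and the NoTx seizure libraries 7. Pooled over libraries, the MG seizure level was 0.0230 CPM, with an exact Poisson 95% interval of 0.00278 to 0.083 that covers counting error only.

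**Figure D1:**
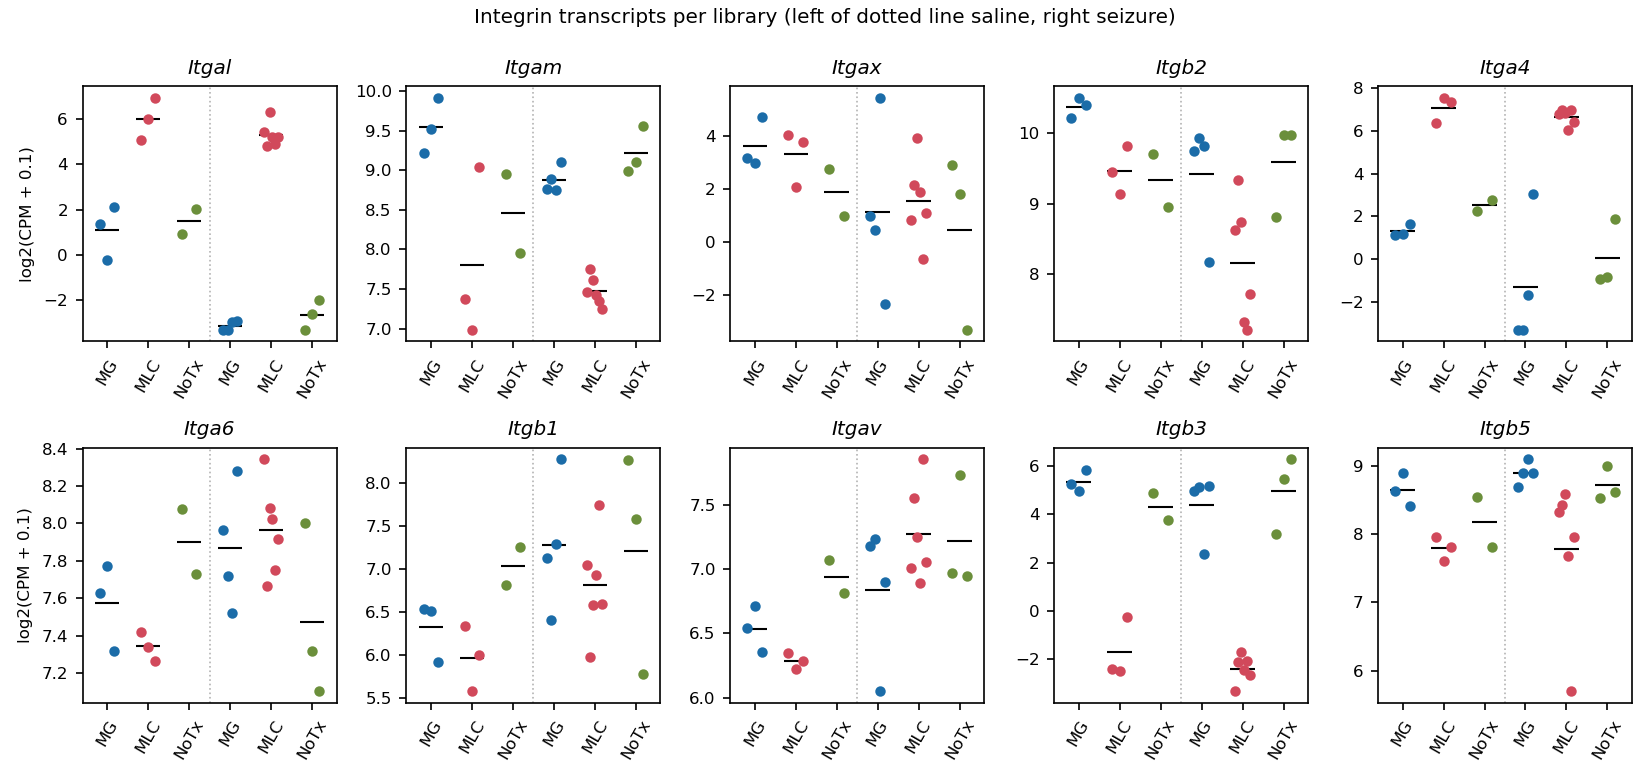
Level of each of the 10 integrin genes in each of the 21 libraries, as log2(CPM + 0.1) on the vertical axis with its own range in each panel; points are libraries, blue for MG, red for MLC and green for NoTx, and bars are group means of the plotted values. MLC points lie above all others for Itgal and Itga4 and below all others for Itgb3.

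Itgam was the most abundant alpha partner of beta 2 in every group. In MG it had 594, 732 and 967 CPM after saline and 433, 474, 431 and 549 CPM after seizure. In NoTx it had 495 and 249 CPM after saline and 507, 552 and 757 CPM after seizure. In MLC it had 166, 127 and 525 CPM after saline, and from 152 to 216 CPM, with a median of 174, after seizure. After seizure every MLC library was below every MG and NoTx library, whereas after saline MLC replicate 3 lay above both NoTx libraries. Itgb2, the shared beta chain, had 1188 to 1458 CPM in MG and 562 to 902 CPM in MLC after saline, with 835 and 495 CPM in NoTx. After seizure Itgb2 ran from 287 to 982 CPM in MG, from 147 to 647 CPM in MLC and from 449 to 1009 CPM in NoTx, and these ranges overlap.

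Itgax, which marks dendritic cells and activated microglia, was low and uneven. It had 8.80, 7.80 and 26.1 CPM in MG and 16.4, 4.13 and 13.5 CPM in MLC after saline. After seizure 3 MG libraries had 0.0953 to 1.87 CPM and MG replicate 3 had 43.3 CPM, while MLC libraries ran from 0.541 to 14.8 CPM. NoTx libraries had 6.64 and 1.86 CPM after saline and 7.33, 3.37 and 0 CPM after seizure. All neighbours in the order of group means overlapped, and the MG saline libraries lay above the NoTx libraries of both conditions.

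Levels of different genes were compared per kilobase of annotated exon. Of the summed CPM per kilobase of Itgal, Itgam, Itgax and Itgad, Itgal made up 18.3% ± 8.07 (SD, n = 3) in MLC after saline and 14.7% ± 4.33 (n = 6) after seizure. The highest share of Itgal in any MG or NoTx library was 1.2%. Itgam held 77.4% ± 6.57 (n = 3) and 83.0% ± 6.64 (n = 6) of the same sum in MLC after saline and seizure, and its group means in MG and NoTx ran from 97.4% to 99.3%. Itgad, which lies next to Itgax on chromosome 7, had a mean share of at most 0.354%.

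**Figure D2:**
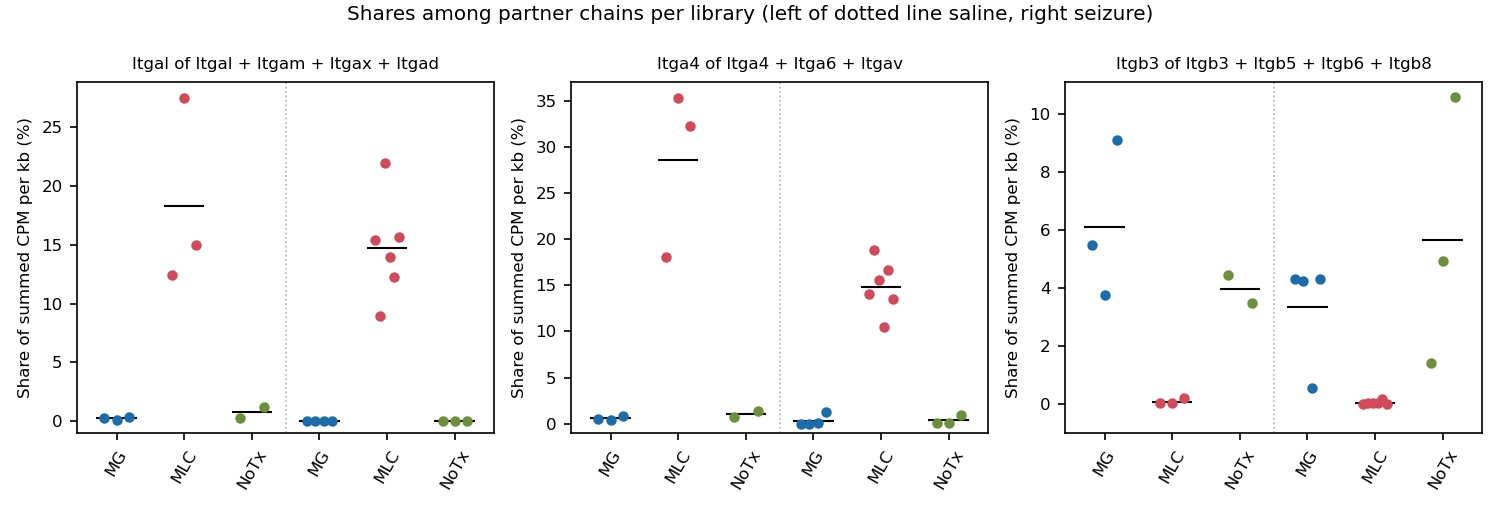
Share of 1 gene in the summed CPM per kilobase of its partner set in each library (vertical axis, percent). The panels show Itgal among alpha partners of beta 2, Itga4 among 3 alpha chains, and Itgb3 among beta partners of alpha V with beta 1 left out. Points are libraries and bars are group means. MLC libraries lie at 8.92% to 27.5% for Itgal and at 10.5% to 35.3% for Itga4, and at or below 0.196% for Itgb3.

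Among the alpha partners of beta 1, alpha 4 followed a pattern similar to that of alpha L. Itga4 had 82.0, 190 and 162 CPM in MLC after saline, and from 65.2 to 129 CPM, with a median of 112, after seizure. In MG it had 2.10, 2.12 and 3.05 CPM after saline and 0, 0, 0.212 and 8.26 CPM after seizure. In NoTx it had 4.63 and 6.80 CPM after saline and 0.415, 0.456 and 3.58 CPM after seizure. The lowest MLC library was above the highest MG or NoTx library, and MG replicate 4 held 260 of the 268 Itga4 counts of the MG seizure group. Itga4 made up 28.6% ± 9.19 (n = 3) of the summed CPM per kilobase of Itga4, Itga6 and Itgav in MLC after saline and 14.8% ± 2.86 (n = 6) after seizure, and at most 1.41% in any MG or NoTx library.

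The remaining chains of the beta 1 and alpha V families were present in all libraries at closer levels. Itga6 ran from 137 to 325 CPM over the 21 libraries, with group means from 162 CPM in MLC after saline to 252 CPM in MLC after seizure. Itgb1 ran from 47.5 to 310 CPM and Itgav from 66.1 to 231 CPM. Itgb5 ran from 51.8 to 548 CPM, and its lowest value was that of MLC seizure replicate 5, a library with few detected genes. All neighbours in the order of group means overlapped for Itga6, Itgb1 and Itgb5. For Itgav the single exception was MG above MLC after saline, at 81.9 to 105 against 74.5 to 81.4 CPM. Some groups further apart in that order did not overlap. Every MLC library had less Itgb5 than every MG library of its condition. The ranges were 194 to 249 against 339 to 476 CPM after saline and 51.8 to 386 against 414 to 548 CPM after seizure. After saline, every MLC library also had less Itga6, Itgb1 and Itgav than the NoTx libraries.

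Itgb3 was read in both kinds of microglia and was near 0 in MLC. It had 38.2, 30.8 and 56.5 CPM in MG after saline and 31.0, 35.0, 4.96 and 35.6 CPM after seizure. In NoTx it had 28.9 and 13.4 CPM after saline and 8.85, 43.8 and 77.5 CPM after seizure. In MLC it had 0.0869, 0.0809 and 0.735 CPM after saline and 0 to 0.207 CPM after seizure, where the 6 libraries held 11 counts in all. After seizure the ranges of MG and NoTx overlapped, whereas after saline every MG library was above the NoTx libraries. Each MG and NoTx library was above every MLC library. With beta 1 left out, the beta chains that pair with alpha V were summed per kilobase as Itgb3, Itgb5, Itgb6 and Itgb8. Itgb5 had a mean share of 93.9% to 96.7% in the MG and NoTx groups and 99.5% in both MLC groups. Itgb1, with group means of 15.6 to 45.2 CPM per kilobase beside 62.7 to 135 for Itgb5, is not part of this sum. Itgb3 took 6.12% ± 2.73 (n = 3) of that sum in MG after saline, 3.35% ± 1.87 (n = 4) in MG after seizure, and 0.0807% ± 0.10 (n = 3) and 0.0420% ± 0.0573 (n = 6) in MLC.

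For 6 of the 10 genes the RefSeq table (GRCm38.p6) held a promoter, and the windows of Itga4, Itgam and Itgav are shown because these genes were high in MLC, low in MLC and close to even. Each line gives the 250 bases before the annotated start on the plus strand, 5′ to 3′, with capitals marking matches on either strand to GAGGAA (other strand TTCCTC), the core of the sites bound by the macrophage factor PU.1, or to TGTGGT (other strand ACCACA), the core bound by Runx factors. The intervals are chr2:79255176-79255425 for Itga4, chr7:128062390-128062639 for Itgam and chr2:83724147-83724396 for Itgav.
Itga4: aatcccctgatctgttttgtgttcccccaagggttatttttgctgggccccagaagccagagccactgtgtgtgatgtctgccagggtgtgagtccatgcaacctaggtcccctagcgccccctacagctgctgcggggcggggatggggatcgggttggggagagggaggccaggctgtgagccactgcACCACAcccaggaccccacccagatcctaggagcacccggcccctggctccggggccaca
Itgam: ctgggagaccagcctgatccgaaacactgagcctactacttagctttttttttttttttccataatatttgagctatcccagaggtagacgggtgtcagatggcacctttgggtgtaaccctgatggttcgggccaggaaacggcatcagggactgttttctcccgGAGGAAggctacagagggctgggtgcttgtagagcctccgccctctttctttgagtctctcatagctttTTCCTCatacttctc
Itgav: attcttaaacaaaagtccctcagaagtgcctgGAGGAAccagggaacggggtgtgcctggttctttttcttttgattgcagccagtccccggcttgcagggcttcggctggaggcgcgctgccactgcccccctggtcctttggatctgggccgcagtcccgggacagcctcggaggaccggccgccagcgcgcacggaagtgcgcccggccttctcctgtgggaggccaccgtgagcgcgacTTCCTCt
The Itga4 window held 1 match to TGTGGT and 0 to GAGGAA, and the windows of Itgam and Itgav each held 2 matches to GAGGAA and 0 to TGTGGT. Of the windows not shown, that of Itgb1 held 1 match to GAGGAA and 0 to TGTGGT. Those of Itgax and Itgb5 held 0 matches to either. Of 32851 promoters cut to the same length, 23.3% held GAGGAA and 14.0% held TGTGGT. These matches are letters in a window and no binding was measured. Itgal, Itgb2, Itgb3 and Itga6 had no entry in that table.

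In MLC against MG, the comparison that chose the genes, the log2 fold change of Itgb3 was -7.08 (SE 1.14) after saline and -7.82 (SE 0.89) after seizure. The saline value became -8.86 without MLC saline replicate 3, which held 39 Itgb3 counts against 4 and 3 in the other MLC saline libraries. That of Itgal was 4.90 (SE 0.82) after saline, and after seizure its pooled level in MLC was 2330 times that in MG, with an interval of 645 to 19242 from counting error alone. Itga4 had 5.90 (SE 1.31) and 5.55 (SE 1.10), and the latter became 9.76 without MG seizure replicate 4 and 8.41 when the name codes of the seizure libraries entered the fit as a block. Itgam had -1.49 (SE 0.40) and -1.40 (SE 0.30), and the saline value became -2.36 without MLC saline replicate 3. Itgb2 had -0.89 (SE 0.50) and -1.20 (SE 0.39), and Itgb5 had -0.86 (SE 0.43) and -0.89 (SE 0.34). Itgav, Itga6 and Itgb1 lay between -0.52 and 0.40 in both conditions. Itgax had -0.33 (SE 1.59) after saline and -1.37 (SE 1.24) after seizure, and the latter turned to 2.10 without MG seizure replicate 3.

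Libraries of the 2 groups did not overlap for 7 of the 10 genes after saline (2 higher and 5 lower in MLC) and for 5 of the 10 after seizure (2 higher and 3 lower). The same was true of 22.8% and 5.41% of all genes tested, and nothing is read from the members' counts here. The median log2 fold change of the 10 genes was -0.34 after saline and -0.71 after seizure, and that of all genes was 0 in each.

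MLC were next compared with the brain's own microglia. These comparisons have the same MLC libraries as the description above, so their values are not independent of it. After saline, alpha L was higher and beta 3 lower in MLC than in NoTx. Itgal had a log2 fold change of 4.68 (SE 0.96, adjusted p = 0.0112, edgeR) and Itgb3 had one of -6.10 (SE 1.11, adjusted p = 0.00359). These were 2 of 10 genes called, against 1.26% of all genes in this comparison, with calls at an adjusted p below 0.05. Both are the genes selected on the MLC against MG difference, so nothing is read from this count. Itga4 had a value of 4.66 (SE 1.48), close to that of Itgal, and missed the threshold (adjusted p = 0.187), though 4 of 15 alternatives called it. The other 7 genes were not called, with values from -1.05 (SE 0.56) for Itgb1 to 1.42 (SE 1.86) for Itgax. Libraries did not overlap for 6 of the 10 genes, as for 33.3% of all genes. The call of Itgal rested on few libraries: its adjusted p was 0.0638 without MLC saline replicate 3, 0.285 without NoTx saline replicate 1 and 0.144 without NoTx saline replicate 2. Each of the latter 2 fits leaves 1 NoTx saline library, which is assumed to vary like the other groups. That of Itgb3 held in 15 of 15 alternative analyses, with adjusted p values up to 0.0349.

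After seizure, Itgal and Itga4 were higher and Itgb3 and Itgam lower in MLC than in NoTx. Itgal had a log2 fold change of 9.12 (SE 1.00, adjusted p = 2.62e-06), and its pooled level was 762 times that of NoTx with a counting interval of 370 to 1898. Itga4 had 6.15 (SE 1.30, adjusted p = 0.00484), Itgb3 had -8.52 (SE 0.92, adjusted p = 2.12e-06) and Itgam had -1.76 (SE 0.32, adjusted p = 0.00142). These 4 of 10 genes compare with 6.16% of all genes called. Itgal and Itgb3 among them were selected on the MLC against MG difference, so nothing is read from this count. Each of the 4 calls held in 20 of 20 alternative analyses, among them those with the libraries coded 11b left out or summed. The value of Itga4 ran from 5.62 to 7.89 over these, and the highest came without NoTx seizure replicate 3, which held 71 Itga4 counts against 6 and 30 in the other NoTx seizure libraries. Libraries of MLC and NoTx did not overlap for the same 4 genes, as for 9.22% of all genes. Itgb2 had -1.32 (SE 0.41) and missed the threshold (adjusted p = 0.0603), but was called without MLC seizure replicate 2 (-1.62, adjusted p = 0.0161), without NoTx seizure replicate 1 (-1.61, adjusted p = 0.0377), with the name codes as a block (-1.25, adjusted p = 0.0227) and by limma-voom. At each of the 3 name codes that both groups have, the MLC library without 11b had less Itgb2 than the NoTx library, at 393 against 449, 647 against 1009 and 159 against 1005 CPM. The codes are not shown to pair libraries, and without pairing the ranges overlap. Here libraries of the same code correlated at -0.0638 to 0.00201 after group means were removed, and 0 of 3 correlated best with their own code. The other 5 genes, Itgb5, Itgav, Itga6, Itgb1 and Itgax, had values from -0.71 (SE 0.36) for Itgb5 to 0.45 (SE 0.25) for Itga6 and were not called, although Itgb1 reached -1.30 (adjusted p = 0.0106) when the GC-content trend of each library entered the fit. The median of the 10 genes was -0.29 and that of all genes was 0.

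**Figure D3:**
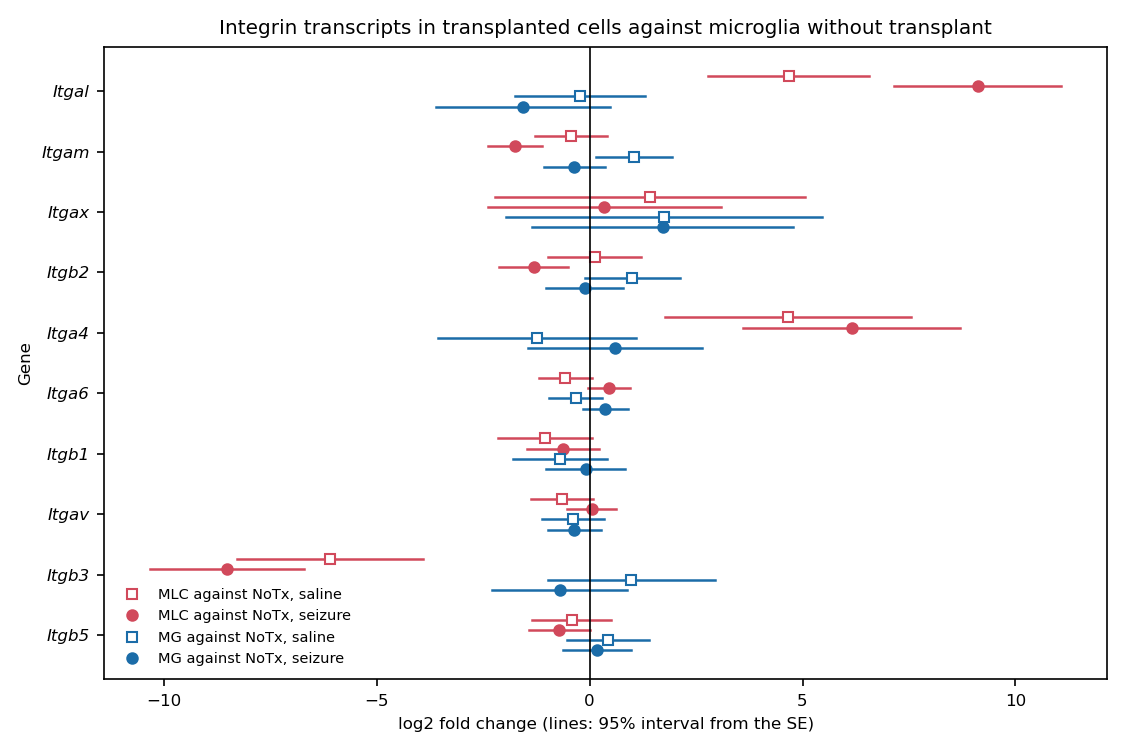
Log2 fold change (horizontal axis) of each integrin gene in MLC (red) and MG (blue) against NoTx, after saline (open squares) and seizure (filled circles), from the edgeR fit of all 21 libraries; lines are 95% intervals computed from the SE. MLC values for Itgal and Itga4 lie at 4.66 to 9.12 and those for Itgb3 at -6.10 and -8.52, and MG values lie between -1.57 and 1.74.

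Markers of other cells moved with the NoTx group. The summed level of 11 neutrophil markers was 70.1 to 1656 CPM in NoTx after saline and 6.64 to 820 CPM after seizure, against at most 18.5 CPM in any MG or MLC library. Ly6g was at 0 in all MG and MLC groups, and Mpo was at 0 in both NoTx groups. The 12 markers of blood monocytes and dendritic cells summed to 253 to 1228 CPM in NoTx after saline, to 17.9 to 152 CPM after seizure, and to at most 60.2 CPM in the other groups. Neutrophils and monocytes carry beta 2 integrins, and the part of such cells in the NoTx levels of Itgal, Itgam and Itgb2 was not tested.

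The same was checked for cells that could carry the MLC and MG patterns. The 14 T and NK cell markers, from lymphocytes that express Itgal and Itga4, summed to 10.5 to 12.4 CPM in MLC after saline, against 1.33 to 1.98 CPM in MG and 1.04 to 1.09 CPM in NoTx, so they were higher in the same libraries as Itgal and Itga4. After seizure they summed to 0 to 8.13 CPM in MLC, 0 to 14.3 CPM in MG and 0.0456 to 0.101 CPM in NoTx. Cd4 led the list in MLC after saline at a mean of 7.0 CPM. Of the 14 markers, 3 (Ncr1, Klrb1c and Prf1) were at 0 in MLC after saline and 9 after seizure, including Cd3e, Cd3g, Trbc1 and Trbc2. In MG the 6 B cell markers summed to 957 to 1235 CPM after saline and 618 to 1614 CPM after seizure. MLC had 603 to 888 and 230 to 631 CPM, and NoTx had 978 to 996 and 727 to 1397 CPM. Ighm led these markers in every group, at means of 414 to 1025 CPM, and Pax5 was at 0 in each. The part of lymphocyte transcripts in the Itgal and Itga4 levels was not tested. Itgb3 is also the beta chain of the platelet integrin, and the 10 platelet markers summed to 4.98 to 37.7 CPM in MG and NoTx libraries and to 0 to 6.39 CPM in MLC. Gp9 led this list at group means of 10.3 to 26.2 CPM in MG and NoTx, while Ppbp, Gp1bb and Gp6 were at 0 in each of those groups. The part of platelet transcripts in the Itgb3 levels was not tested. In sorted bulk samples, fewer cells of a type and less RNA per cell cannot be told apart.

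Transplanted microglia were compared with the brain's own microglia. No member was called in MG against NoTx, either after saline (0 of 10, against 0.0530% of all genes) or after seizure (0 of 10, against 0.0742%). At an unadjusted p below 0.05 there was 1 member after saline and 0 after seizure. The former was Itgam, at 1.04 (SE 0.45, 95% interval 0.16 to 1.92, adjusted p = 1). Itgb2 had 1.00 (SE 0.57) after saline and was called by limma-voom alone (1.05, adjusted p = 0.0338). For Itgb3 the difference was 0.98 (95% interval -0.98 to 2.94) after saline and -0.70 (-2.28 to 0.87) after seizure, and for Itgal after saline it was -0.23 (-1.74 to 1.29). These intervals leave room for differences of several fold, so the 2 kinds of microglia are not shown to be alike.

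The second question was whether levels differed between seizure and saline libraries of the same kind of cells, which are also batches 1 and 2. Alpha L transcripts were lower in the seizure libraries of both kinds of microglia. In MG the pooled Itgal level was 0.00966 times that of saline (counting interval 0.00116 to 0.0352), with 2 counts after seizure and 291 after saline, and the edgeR test called it (adjusted p = 0.00592). It was the single call among the 10 members, against 0.0371% of all genes. The call was lost in 3 of 15 alternative analyses, with adjusted p values of 0.061 without MG seizure replicate 4, 0.169 when only the compared groups were fitted and 0.328 without the 3 libraries of low complexity. In NoTx the log2 fold change of Itgal was -5.24 (SE 0.92, adjusted p = 0.0188), again the single call among the 10, against 0.106% of all genes. That call was lost in 5 of 13 alternatives, with adjusted p values from 0.0996 without NoTx seizure replicate 1 to 0.501 when only the compared groups were fitted. The 2 other left-out libraries that ended it were NoTx saline replicate 2 (0.290, with 1 NoTx saline library left) and NoTx seizure replicate 2 (0.163).

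In MLC, Itgal had a log2 fold change of -0.81 (SE 0.58, adjusted p = 0.665) between seizure and saline, and no member was called (0 of 10, with 0 of all genes called by edgeR). Unadjusted p values were below 0.05 for 3 members, Itgav at 1.02 (SE 0.30), Itgb2 at -1.13 (SE 0.41) and Itga6 at 0.64 (SE 0.26), and DESeq2 called 1, Itgav (1.12, adjusted p = 0.0359). Itgb3 had -1.39 (SE 0.86) in MLC, -0.65 (SE 0.81) in MG and 1.03 (SE 1.00) in NoTx. Itgam had -0.70 (SE 0.36) in MG, -0.61 (SE 0.33) in MLC and 0.70 (SE 0.44) in NoTx, and none of these was called. Median changes over the 10 genes were -0.20 in MG, -0.53 in MLC and 0.31 in NoTx, beside -0.08, -0.06 and 0 for all genes.

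**Figure D4:**
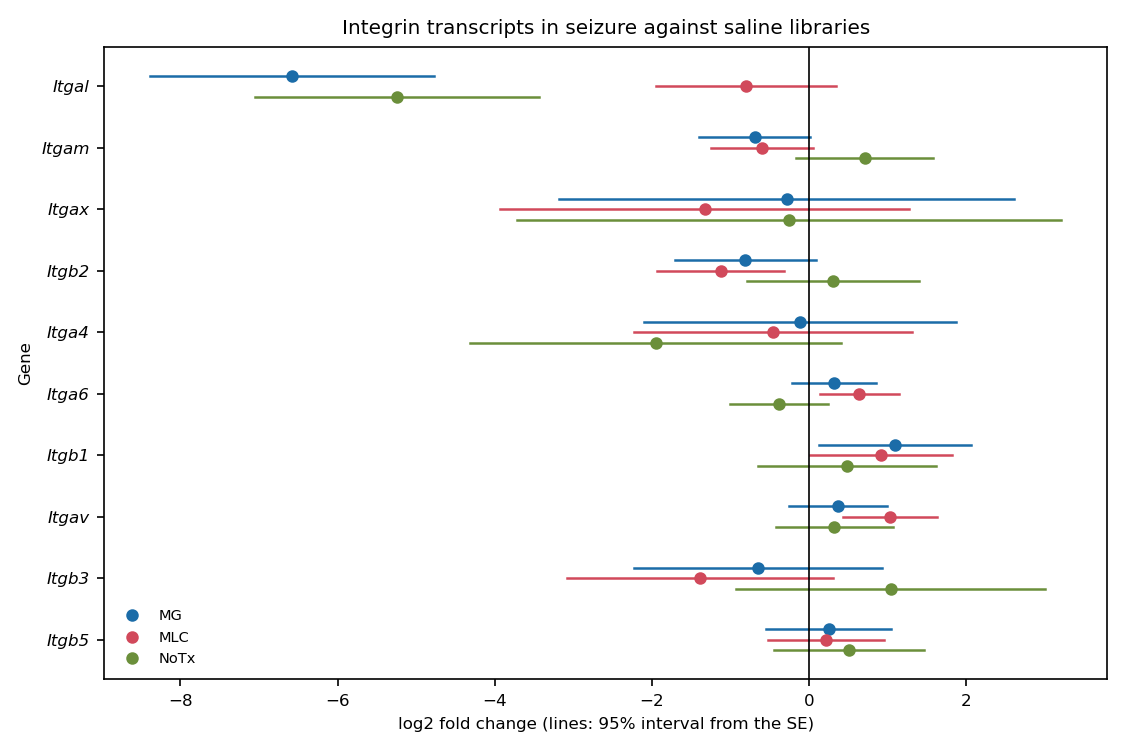
Log2 fold change (horizontal axis) of each integrin gene in seizure against saline libraries of MG (blue), MLC (red) and NoTx (green), from the edgeR fit; lines are 95% intervals computed from the SE. The MG value of Itgal rests on 2 counts after seizure and is no measure of size, and the MG and NoTx points for Itgal lie left of all others.

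Whether the seizure difference itself differed between kinds of cells was tested as an interaction. No member was called in any of the 3 interactions (0 of 10 in each, against 0, 0.0265% and 0.0106% of all genes), and unadjusted p values were below 0.05 for 1, 3 and 1 members. Itgal had an interaction of 5.78 (SE 1.12, adjusted p = 0.345) for MLC against MG and of 4.44 (SE 1.09, adjusted p = 0.382) for MLC against NoTx. DESeq2 called both (adjusted p = 0.000243 and 0.00469), and the first again involves the 2 MG counts. The interaction for MLC against MG is the difference of the 2 comparisons that chose Itgal and Itgb3. Its tests are therefore not independent of that choice and are given as a description. The seizure against saline change is also that of batch 1 against batch 2. A difference in this change of Itgal between MLC and microglia was thus not shown by the main test. Itgb3 had -0.74 (95% interval -3.02 to 1.54) for MLC against MG, and Itga4 had -0.35 (-3.02 to 2.33). The Itga4 value ran from -0.74 to 8.66 over 26 alternatives, none of which called it, so its interval does not settle its size.

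Within groups, the members' deviations from their group means were compared over the 21 libraries as a description. The highest correlations of log2 CPM were those of Itgam with Itgb3 (r = 0.645), Itgb2 with Itgb5 (0.596) and Itga6 with Itgb1 (0.587), and the lowest was that of Itgb2 with Itgb1 (-0.667). All genes of a library share its depth and its base composition trend, and these differed between libraries: the slope of log2 level on transcript GC content ran from -0.945 per 10% in MLC seizure replicate 5 to 0.691 in MG saline replicate 3. Itgb5, Itgal and Itgb2 had the highest GC content of the 10 (57.0%, 53.2% and 53.1%) and Itgb1, Itgav and Itga4 the lowest (44.9%, 43.6% and 41.1%). The part of base composition in these correlations was not tested. With that slope in the fit, the saline differences of MLC against MG became -0.48 for Itgb2 and -0.63 for Itgb5.

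The genes whose pattern was most like that of Itgb3 over the 21 libraries, among 10208 genes whose log2 CPM averaged 2 or more, were Eva1a (r = 0.962), D830030K20Rik (0.962) and Atp8a2 (0.959). Eva1a had group means of 40.2 to 57.9 CPM in MG and NoTx and of 0.237 and 0.272 CPM in MLC. Those most like Itgal were Adam33 (0.979), ENSMUSG00000121482 (0.976) and Rftn1 (0.973). Adam33, a gene of the ADAM metalloprotease family, had 22.9 and 17.2 CPM in MLC after saline and seizure, 0.606 and 0 in MG, and 2.19 and 0.0270 in NoTx. These correlations rest mostly on the split between MLC and the other groups.

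Of 17 other integrin chains, 8 passed the filter on low counts. Itga9, an alpha partner of beta 1, had group means of 20.6 to 39.3 CPM and Itga5, the fibronectin receptor chain, of 4.48 to 25.3 CPM, and neither was called in any comparison. The single call among these chains was Itgb8, a partner of alpha V that activates TGF-beta, in MLC against MG after seizure (adjusted p = 0.0458), where it was at 0 in all MG libraries. It was thus 1 of 8 chains, where 5.88% of all genes were called. It was lost in 14 of 20 alternatives, with adjusted p values up to 0.224, and in each of the 4 fits that left out 1 MG library.

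Among 36 genes of integrin activation and adhesion complexes, 32 were tested. In MLC against MG, 0 were called after saline (against 1.58% of all genes), and after seizure 1 was higher and 1 lower (against 5.88%). Fyb, an adaptor that couples immune receptors to integrin activation, had 579 ± 94.3 CPM in MLC (n = 6) and 290 ± 105 in MG (n = 4), a log2 fold change of 1.00 (SE 0.24, adjusted p = 0.0115). Tln2, which encodes talin 2 and links beta chains to actin, had 18 ± 11.9 and 74.4 ± 23.1 CPM, with -2.05 (SE 0.58, adjusted p = 0.0370). The call of Fyb was lost in 3 of 21 alternatives, among them without MG seizure replicate 3 (adjusted p = 0.0526), and that of Tln2 in 12 of 21, with adjusted p values up to 0.185. In MLC against NoTx after seizure 4 of the 32 were called, against 6.16% of all genes. Of these 1 was higher, Fyb (0.91, SE 0.26), and 3 were lower: Tln2 (-2.09, SE 0.61), Ilk, the integrin-linked kinase (-1.46, SE 0.38), and Apbb1ip, which recruits talin (-1.25, SE 0.35). Their adjusted p values were 0.0237 to 0.0451, and each of the 4 was lost in 8 to 16 of 20 alternatives, with adjusted p values up to 0.225. The list's median was -0.84 there and that of all genes was 0.

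Ligands and partners of integrins made a list of 40 genes, of which 24 were tested. Jam2, a junctional adhesion molecule that binds alpha 4 beta 1, had group means of 176 to 208 CPM in MG and NoTx and of 0.510 and 1.79 CPM in MLC. Its log2 fold change in MLC was -8.39 (SE 0.78) after saline and -6.86 (SE 0.53) after seizure against MG, and -8.47 (SE 0.80) and -6.80 (SE 0.54) against NoTx, and all 4 calls held in every alternative run. Vcam1, the main cell surface ligand of alpha 4 beta 1, had 749 ± 226 CPM in MLC after saline (n = 3) against 49.2 ± 24.3 in MG (n = 3) and 9.85 ± 4.31 in NoTx (n = 2). The saline log2 fold changes of 3.93 (SE 1.19, adjusted p = 0.135) and 6.25 (SE 1.60, adjusted p = 0.0559) missed the threshold. It had 486 ± 242 CPM in MLC after seizure (n = 6) against 21 ± 28.2 in MG (n = 4) and 9.87 ± 8.62 in NoTx (n = 3). The seizure log2 fold changes were 4.52 (SE 1.03, adjusted p = 0.00940) and 5.63 (SE 1.25, adjusted p = 0.00751), and the former missed the threshold with no low-count filter (adjusted p = 0.0507). Emilin1, a matrix protein bound by alpha 4 beta 1, was higher in MLC than in MG after seizure (7.67, SE 1.71, adjusted p = 0.00800), at 12 ± 4.75 CPM against 4 counts in all of MG. That call was lost without the 3 low-complexity libraries (adjusted p = 0.101). After saline 1 of the 24 genes, Jam2, was called in each comparison, against 1.58% of all genes for MG and 1.26% for NoTx. After seizure 3 of the 24 were called against MG and 2 against NoTx, where 5.88% and 6.16% of all genes were.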

How the data were processed

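The authors deposited estimated counts for each gene and library. Of the nonzero counts, 28.2% to 45.4% per library were not whole, and all counts were rounded. The submitters' processing notes name Trim Galore 0.6.7 (trimming), STAR 2.7.10a (alignment), GRCm39 and featureCounts; the sources used here do not say what made counts fractional. Per the labels' protocols, a low-input kit was used on RNA of sorted cells. No molecular identifiers are named. The intervals of pooled levels and pooled ratios cover counting error only, whereas those of fold changes and interactions are computed from the SE of the edgeR fit. Samples are labelled as biological replicates, and their spread is what p values measure.

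All 21 libraries entered 1 edgeR 4.0.16 quasi-likelihood fit in R 4.3.3 (robust, TMM, 6 group means, filter by group), with Benjamini-Hochberg adjustment over 18867 genes and 0.05 as the limit. The SE is the absolute log2 fold change over the square root of F. Exon lengths came from GENCODE annotation. Alternatives were no filter, RLE scaling, DESeq2 1.42.0, limma-voom (limma 3.58.1), fewer groups, the replicate number as a block, the 2 libraries coded 11b left out or summed, 3 low-complexity libraries left out, each library left out and, chosen after seeing the data, the GC-content slope and the name codes of the seizure libraries as a block. The fit was tested on simulated data. Named genes were the 10 members, up to 3 called genes per direction and list, other chains at 5 CPM or more, the 3 genes most like Itgb3 and Itgal, and the leading and absent markers. The members and lists were chosen with earlier results of these data known.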

Additional observations from a re-analysis of the deposited data

Results flagged for a closer look

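In 5 of 20 combinations of gene and group with 4 to 6 libraries, 1 library lay far from the rest. The limit used lets through about 1 in 20 by chance for normally distributed values, which CPM need not be, and the 5 come from 3 libraries. In MG after seizure, Itgax had 43.3 CPM in replicate 3 against 0.0953 to 1.87 CPM in the others. In the same library Itgb3 had 4.96 CPM against 31.0 to 35.6 CPM. Itga4 had 8.26 CPM in MG seizure replicate 4 against 0 to 0.212 CPM in the others. These 2 libraries are among the 3 with the fewest genes at equal depth. In MLC after seizure, replicate 3 had Itgal at 79.6 CPM against 28.3 to 42.5 CPM and Itgax at 14.8 CPM against 0.541 to 4.31 CPM, and the name of that library carries the code 11b. The cause was not tested in any of these.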

How the results depend on the processing

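Over 32 settings, 2332 of 2453 alternative fold changes of members and named list genes kept their side of the threshold or, where untested, moved by less than the spread between libraries. Of the rest, 90 lost and 14 gained a call, 15 untested values moved by more than that spread and 2 reversed. Uncalled values changed sign in 133 cases. The reversals were those of Itgax in MLC against MG after seizure, at 1.84 without the 3 low-complexity libraries and -2.16 to 2.10 with 1 library left out. The count of members called in MLC against NoTx after saline was 1 to 2 with 1 library left out. In MG against NoTx after saline it was 1 with limma-voom. For seizure against saline it was 2 in MG with limma-voom, 0 with only the groups compared, 0 without the 3 low-complexity libraries and 0 to 1 with 1 library left out. In NoTx it was 0 with limma-voom, 0 with only the groups compared and 0 to 1 with 1 library left out. DESeq2 called 1 member in seizure against saline in MLC and 1 in each interaction of seizure with MLC, against MG and against NoTx. The cause was not tested.

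With the replicate block, 2, 4, 0 and 0 members were called in MLC and MG against NoTx after saline and seizure in that order, 1, 0 and 1 for seizure against saline in MG, MLC and NoTx, and 0 in each interaction, and the block changed no call of a member, while 5 list genes called in the seizure comparisons, Itgb8, Ilk, Apbb1ip, Fyb and Tln2, lost 1 call each. Over all genes the block moved the calls after seizure from 1109 to 754 in MLC against MG and from 1162 to 745 in MLC against NoTx. Libraries with the same number correlated at -0.142 to 0.134 after group means were removed, and in no comparison of 3 or more pairs did every library correlate best with its own number, so the numbers were not taken as pairs. In the seizure libraries of MG and NoTx the numbers follow the order F1, M1, F2, M2 of the codes in their names, and NoTx has no M2. In MLC the numbers depart from that order from replicate 3 on. The labels do not say what a code stands for. Libraries with the same code correlated at -0.0638 to 0.159. With the code as a block, chosen after seeing the data, 5 members were called in MLC against NoTx after seizure, with Itgb2 added, and 0 in MG against NoTx. In the fit with the replicate number as a block, MLC seizure replicates 5 and 6 share their number with no other group and add nothing. RLE scaling moved the median of all genes after seizure by 0.12 (log2) in MLC against MG and by 0.13 in MLC against NoTx, and changed no call or direction of a called member. Depth limits Itgal after seizure in MG and NoTx and Itgb3 after seizure in MLC, which rest on 2, 7 and 11 counts. Groups of 2 to 6 libraries leave wide intervals. In data simulated for MLC against NoTx after saline, with 50 genes per size, edgeR recovered few changes under 8-fold. The other comparisons were not simulated.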
